A study of Mus musculus with 24 samples.

Results

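The genes described here were 8 genes that serve as markers of astrocytes, Gfap, Aqp4, Slc1a2, Slc4a4, Atp1b2, Aldoc, Aldh1l1 and S100b, measured in the nerve roots of developing mice. They were chosen by name, through the symbol printed for each gene probe of the array, and each was read from the probe with the highest mean over all arrays. All 8 had a probe, among 37074 names on the array, and all 8 passed the filter on dim probes. They had 20 probes in all, of which 16 passed the filter. The probes used were well above background on all 24 arrays, that of Slc1a2 on 23.

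The study compared efferent nerve fibres (EN), which form the ventral roots and carry motor axons, with afferent nerve fibres (AN), which form the dorsal roots and carry sensory axons, from L4 to L6 of C57BL/6 mice. Both kinds of fibre were taken from untreated mice of both sexes in the newborn (P0) and at an age of 1, 3 or 5 weeks (written 1 W, 3 W, 5 W), and each of the 8 groups had 3 arrays. The methods speak of 3 independent experiments per group and of fibres pooled from several animals, but no label ties an array to its animals, so the p-values measure only the spread between the arrays of a group, which may be in part technical. Whole pieces of root were lysed, with Schwann cells and other cells left in, so fewer cells of a type and less RNA per cell cannot be told apart.

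Astrocytes are the glial cells of the brain and spinal cord that take up transmitter, buffer ions and water and line the surface of the tissue. At the spinal roots they end at a transition zone, where central tissue gives way to peripheral nerve and Schwann cells take over as the glia of the axons. Several astrocyte genes are not used by astrocytes alone: Schwann cells make S100b, and Schwann cells that do not myelinate make Gfap.

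As a picture of where the transcripts start, the region around the gene start (250 bases before it and 50 after it, 5′ to 3′ on the gene's own strand, RefSeq, build GRCm38.p6) is printed for a gene of each pattern described below. Gfap, which was higher in AN, lies on the minus strand of chromosome 11 (chr11:102897151-102897450), and S100b, which was higher in EN, on the plus strand of chromosome 10 (chr10:76253586-76253885). Capitals mark matches to the 4 motifs searched on both strands, which were TTGGCA (NFI factors), TTCNNNGAA (STAT factors), ACAAAG (SOX factors) and TGANTCA (AP-1).
Gfap: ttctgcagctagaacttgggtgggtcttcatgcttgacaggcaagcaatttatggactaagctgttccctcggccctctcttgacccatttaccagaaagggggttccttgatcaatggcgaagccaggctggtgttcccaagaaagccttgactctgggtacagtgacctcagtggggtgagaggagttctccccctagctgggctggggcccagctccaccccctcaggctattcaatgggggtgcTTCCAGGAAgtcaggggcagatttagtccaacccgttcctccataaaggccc
S100b: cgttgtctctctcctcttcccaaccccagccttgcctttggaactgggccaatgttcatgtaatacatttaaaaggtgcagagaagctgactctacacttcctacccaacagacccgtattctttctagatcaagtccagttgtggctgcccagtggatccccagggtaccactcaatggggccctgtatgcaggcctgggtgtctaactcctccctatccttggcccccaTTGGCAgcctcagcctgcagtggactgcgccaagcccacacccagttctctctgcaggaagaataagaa
The Gfap stretch held 1 STAT match, at its gene start, and the S100b stretch held 1 NFI match, just before its gene start. Of all 32851 stretches of this length in the RefSeq table, 8.3% held the STAT motif, 14.1% the NFI motif, 18.7% the SOX motif and 7.81% the AP-1 motif. The table held 6 of the 8 genes; of the others that were searched, Aldh1l1, Slc1a2 and Slc4a4 held no match to any of the motifs, and the 2 start sites of Aldoc held 1 NFI match and 2 STAT matches. A match is a run of letters in this window, and says nothing of binding in these roots.

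Values are log2 levels from the authors' quantile normalized table, so a difference of 1 is a 2-fold change. A gene was called changed when limma's moderated test gave an adjusted p (Benjamini-Hochberg, over the 36409 probes tested) below 0.05 and the change was more than 2-fold. Shares of all tested probes are given at this threshold only, so counts by unadjusted p stand without a share. Levels were compared only within a probe. The arrays' median spot signal was between 45.4 and 191 over a median background of 23 to 46, no spot was saturated, and 55.1% to 71.7% of gene spots were well above background.

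Genes of myelinating Schwann cells, such as Prx, were well above background on every array (8 of 8 in every group). The 8 sensory neuron genes, such as Calca and Prph, set some arrays apart from their group. Their summed log2 level was 17.83 on AN replicate 3 at 3 W against 12.49 and 12.92 on the other arrays of that group.

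Gfap, Aqp4, Slc1a2, Slc4a4, Aldoc and Atp1b2 had higher means in AN than in EN at all 4 stages, while Aldh1l1 and S100b had lower means in AN at all 4. Over the 9 AN and EN pairs of arrays with the same replicate number after P0, which were always on 1 slide, Gfap, Aqp4, Slc1a2, Slc4a4 and Aldoc were higher in AN in 9, Atp1b2 in 8, and Aldh1l1 and S100b in 0.

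**Figure D1:**
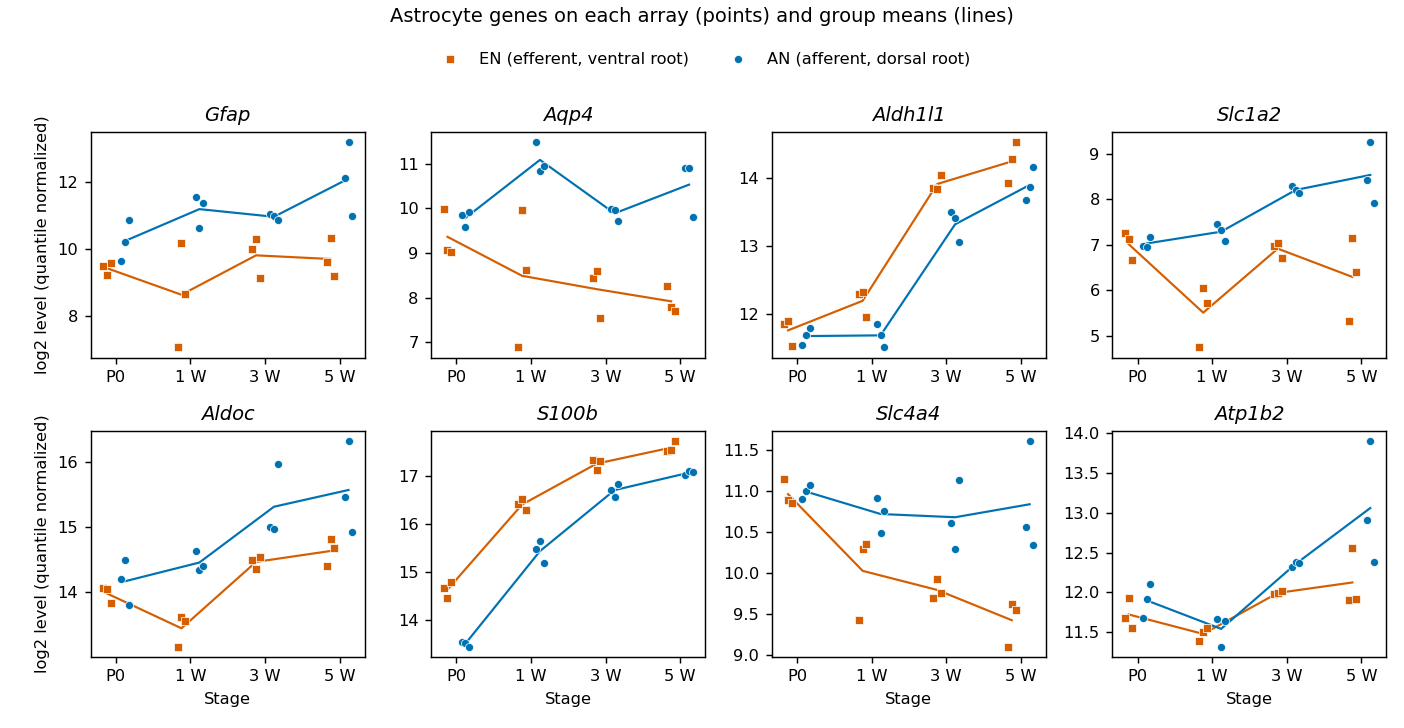
Log2 level of each of the 8 genes (vertical axis, quantile normalized, 1 panel per gene with its own scale) at the 4 stages (horizontal axis). Squares are EN arrays and circles AN arrays, 3 per group, and lines join the group means; after P0, Gfap, Aqp4 and Slc1a2 lie higher in AN than in EN, whereas S100b climbs in both roots with EN above AN.

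Gfap encodes the intermediate filament by which astrocytes are usually recognized. In EN its log2 level on replicates 1, 2 and 3 was 9.48, 9.24 and 9.57 at P0, 7.07, 10.18 and 8.66 at 1 W, 10.00, 10.28 and 9.14 at 3 W, and 9.60, 10.31 and 9.19 at 5 W. The AN arrays gave 9.64, 10.20 and 10.87 at P0, 11.56, 10.63 and 11.37 at 1 W, 11.03, 10.97 and 10.87 at 3 W, and 12.11, 13.18 and 10.99 at 5 W. All AN arrays were above all EN arrays of their stage, with the narrowest gap at P0. EN replicate 1 at 1 W was the lowest of the 24 arrays and AN replicate 2 at 5 W the highest. The difference between the roots was 2.55 ± 0.60 (SE, n = 3 per group; 5.85-fold, adjusted p = 0.020, limma) at 1 W and 2.39 ± 0.60 (5.25-fold, adjusted p = 0.021, limma) at 5 W. At P0 it was 0.81 ± 0.60 and at 3 W 1.15 ± 0.60, and neither passed the test (adjusted p = 1.00 and 0.31, limma). In AN, Gfap rose from P0 to 5 W by 1.86 ± 0.60 (3.63-fold, adjusted p = 0.015, limma). In EN no stage passed the test against P0, and the 5 W mean was 0.27 ± 0.60 above it. The difference at 1 W missed the threshold without EN replicate 1 (1.76, adjusted p = 0.14, limma), AN replicate 1 (2.36, 0.092) or AN replicate 3 (2.45, 0.084). That at 5 W missed it without AN replicate 2 (1.85, adjusted p = 0.13, limma), AN replicate 1 (2.38, 0.052), EN replicate 1 (2.34, 0.057) or EN replicate 3 (2.14, 0.083), and the rise within AN missed it without AN replicate 2 at 5 W (1.32, 0.090) or AN replicate 1 at P0 (1.56, 0.066).

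Gfap has 2 probes on the array, which the files tie to different transcripts (NM_001131020 for the probe used and NM_010277 for the other), at chr11:102751813-102751872 and chr11:102748864-102748923 of build mm9. The second probe gave differences of 2.37 ± 0.63 at 1 W (adjusted p = 0.038, limma) and 2.57 ± 0.63 at 5 W (adjusted p = 0.018). From P0 to 1 W in AN it rose by 1.81 ± 0.63 (adjusted p = 0.046, limma), where the probe used gave 0.95 ± 0.60 and was not called (adjusted p = 0.29). In both probes AN was above EN at all 4 stages.

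Aqp4 encodes the water channel of astrocyte end feet. Its log2 level in EN was 10.00, 9.07 and 9.02 at P0, 6.88, 9.95 and 8.63 at 1 W, 8.43, 8.60 and 7.53 at 3 W, and 8.26, 7.79 and 7.69 at 5 W. In AN the level was 9.86, 9.58 and 9.91 at P0, 11.48, 10.83 and 10.95 at 1 W, 9.99, 9.96 and 9.72 at 3 W, and 10.90, 10.90 and 9.80 at 5 W. The roots overlapped at P0 and at no later stage, and the EN means stepped down from 9.36 at P0 to 7.92 at 5 W. AN exceeded EN by 2.60 ± 0.52 at 1 W (6.05-fold, adjusted p = 0.0076, limma) and by 2.62 ± 0.52 at 5 W (6.13-fold, adjusted p = 0.0043). At 3 W the difference was 1.70 ± 0.52 (adjusted p = 0.062, limma), and with the same-numbered AN and EN arrays as pairs its adjusted p was 0.048. In EN, Aqp4 fell from P0 to 5 W by 1.45 on the log2 scale (SE 0.52, adjusted p = 0.025, limma). This fall missed the threshold without EN replicate 1 at P0 (-1.13, adjusted p = 0.11, limma) or without EN replicate 2 (-1.39, 0.061) or 3 (-1.33, 0.072) at 5 W. In EN at 1 W the difference from P0 was -0.87 ± 0.52, and without EN replicate 2 it was called (-1.61, adjusted p = 0.019, limma). In AN, no stage passed the test against P0. A second probe for the same transcript (NM_009700) gave 1.90 ± 0.35, 1.47 ± 0.35 and 2.32 ± 0.35 at 1 W, 3 W and 5 W, all called. Another, tied to a predicted transcript (XM_011246812), had differences between -0.51 and 0.11 and no call, and the last was well above background on 0 of 24 arrays.

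Slc1a2 encodes the glutamate transporter of astrocyte processes. In EN its log2 level was 7.25, 7.14 and 6.66 at P0, 4.75, 6.05 and 5.74 at 1 W, 6.98, 7.05 and 6.72 at 3 W, and 5.32, 7.16 and 6.41 at 5 W. AN read 6.98, 6.95 and 7.17 at P0, 7.47, 7.33 and 7.08 at 1 W, 8.28, 8.20 and 8.14 at 3 W, and 8.43, 9.25 and 7.92 at 5 W. The roots overlapped at P0 and did not overlap from 1 W on, and at 1 W the probe was well above background on 2 of the 3 EN arrays, replicate 1 being the exception. The difference was 0.01 ± 0.38 at P0, 1.78 ± 0.38 at 1 W (3.43-fold, adjusted p = 0.011, limma) and 2.24 ± 0.38 at 5 W (4.72-fold, adjusted p = 0.0013). At 3 W it was 1.29 ± 0.38 (adjusted p = 0.054, limma), and with the arrays as pairs its adjusted p was 0.021. In EN, Slc1a2 fell from P0 to 1 W by 1.50 (SE 0.38, adjusted p = 0.0069, limma) and rose again from 1 W to 3 W by 1.41 ± 0.38 (adjusted p = 0.011). In AN it rose from P0 to 3 W by 1.17 ± 0.38 (adjusted p = 0.016, limma) and to 5 W by 1.50 ± 0.38 (adjusted p = 0.0030). The fall in EN missed the threshold without EN replicate 1 at 1 W (-1.12, adjusted p = 0.053, limma). The difference at 1 W missed it without that array (1.40, adjusted p = 0.091) or AN replicate 1 (1.69, 0.055), and under normexp background correction was 0.98, below 2-fold. Under normexp the fall in EN from P0 to 1 W (-0.81), the rise from 1 W to 3 W there (0.74) and the rise in AN from P0 to 3 W (0.87) were likewise below 2-fold. The rise from 1 W to 3 W in EN missed the threshold without EN replicate 1 at 1 W (1.02, 0.074), and without EN replicate 2 at 5 W the difference from P0 to 5 W in EN was called (-1.15, 0.016).

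Slc4a4 encodes a sodium bicarbonate cotransporter used by astrocytes and by many epithelia. In EN its log2 level was 11.15, 10.89 and 10.85 at P0, 9.43, 10.29 and 10.36 at 1 W, 9.70, 9.93 and 9.75 at 3 W, and 9.11, 9.63 and 9.55 at 5 W. The levels in AN were 10.91, 11.00 and 11.07 at P0, 10.91, 10.49 and 10.76 at 1 W, 10.61, 10.30 and 11.13 at 3 W, and 10.57, 11.60 and 10.35 at 5 W. The EN arrays of every later stage were below those of P0, whereas the AN arrays of the later stages overlapped those of P0. In EN, Slc4a4 fell from P0 by 1.17 at 3 W (SE 0.29, adjusted p = 0.0023, limma) and by 1.53 at 5 W (SE 0.29, adjusted p = 0.00019). In AN the difference from P0 lay between -0.31 and -0.15 and passed no test. AN exceeded EN by 1.41 ± 0.29 at 5 W (2.66-fold, adjusted p = 0.0051, limma) and by 0.03 ± 0.29 at P0. At 1 W and 3 W the roots differed by 0.69 ± 0.29 and 0.89 ± 0.29, and neither passed the test (adjusted p = 0.26 and 0.079, limma). With the slide as a term in the fit, the difference of EN at 3 W from P0 was -0.77 and missed the threshold (adjusted p = 0.16, limma). That fit ties the 3 W slide to the others only through replicate 3 of each root at 5 W. At 1 W the EN arrays differed from P0 by -0.93 ± 0.29, below 2-fold, and by more than 2-fold without EN replicate 2 (-1.07) or 3 (-1.10) at 1 W. It was also called with array quality weights (-1.01, adjusted p = 0.0027, limma) and on a second probe for this transcript (-1.20, adjusted p = 0.00079). That probe gave differences between the roots of 1.01, 1.09 and 1.68 at 1 W, 3 W and 5 W (SE 0.23, adjusted p = 0.014, 0.0079 and 0.00015, limma).

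Atp1b2 encodes the beta 2 subunit of the sodium-potassium pump, and Aldoc the glycolytic enzyme aldolase C, both abundant in astrocytes. The log2 level of Atp1b2 in EN was 11.68, 11.94 and 11.56 at P0, 11.39, 11.50 and 11.55 at 1 W, 11.98, 11.99 and 12.01 at 3 W, and 11.90, 12.56 and 11.91 at 5 W. In AN the arrays held 11.68, 11.92 and 12.11 at P0, 11.66, 11.32 and 11.64 at 1 W, 12.32, 12.38 and 12.37 at 3 W, and 12.90, 13.89 and 12.38 at 5 W. Levels lay between 11.32 and 12.56 in every group but AN at 5 W, where replicate 2 stood above all other arrays. Atp1b2 rose in AN from P0 to 5 W by 1.16 ± 0.26 (adjusted p = 0.0011, limma), against 0.40 ± 0.26 (adjusted p = 0.20) in EN, where it was not called. Without AN replicate 2 at 5 W this rise was 0.74, below 2-fold. The difference between the roots at 5 W was 0.93 ± 0.26 (adjusted p = 0.036, limma), also below 2-fold, and the roots overlapped. It was above 2-fold without AN replicate 3 (1.27) or EN replicate 2 (1.15) at 5 W, and on a second probe (1.01, adjusted p = 0.027). With the slide as a term, the difference from P0 to 3 W was 1.12 in EN and 1.30 in AN, both called, where the fit without it gave 0.27 and 0.46. The slide of the 3 W arrays otherwise held only replicate 3 of each root at 5 W, so this shift rests on those arrays. In AN that replicate was the lowest of its group (12.38, against 12.90 and 13.89).

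Aldoc read 14.06, 14.04 and 13.83 in EN at P0, 13.16, 13.61 and 13.55 at 1 W, 14.49, 14.35 and 14.55 at 3 W and 14.40, 14.82 and 14.68 at 5 W. In AN it read 14.19, 14.50 and 13.80 at P0, 14.63, 14.34 and 14.40 at 1 W, 14.99, 14.97 and 15.97 at 3 W and 15.47, 16.32 and 14.93 at 5 W. AN lay above EN without overlap at 1 W, 3 W and 5 W, and the third AN array at 3 W and the second at 5 W stood out above their groups. The differences between the roots were 1.01 ± 0.29 at 1 W, 0.85 ± 0.29 at 3 W and 0.94 ± 0.29 at 5 W (adjusted p = 0.059, 0.097 and 0.060, limma), so none was called. Without AN replicate 3, the array with the high sensory neuron sum, that at 3 W was 0.52. With the arrays as pairs, that at 1 W was called (adjusted p = 0.031), and without AN replicate 3 that at 5 W was (1.26, adjusted p = 0.0098). In AN, Aldoc rose from P0 by 1.15 ± 0.29 at 3 W (adjusted p = 0.0029, limma) and by 1.41 ± 0.29 at 5 W (adjusted p = 0.00052). The rise at 3 W was below 2-fold without AN replicate 3 at 3 W (0.82) or AN replicate 3 at P0 (0.97), and under array weights (0.89), and the 2 other probes both gave 0.82 (adjusted p = 0.053 and 0.041, limma). In EN, from 1 W to 3 W, Aldoc rose by 1.02 ± 0.29 (adjusted p = 0.014, limma), which missed the threshold without EN replicate 1 at 1 W (0.88, 0.066) or EN replicate 3 at 3 W (0.98, below 2-fold). The 2 other probes of Aldoc gave differences of 1.02 and 0.99 at 1 W and of 1.03 and 1.01 at 5 W, likewise not called.

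Aldh1l1 encodes a folate enzyme that is widely used to label astrocytes. In EN its log2 level was 11.85, 11.91 and 11.54 at P0, 12.30, 12.33 and 11.97 at 1 W, 13.85, 13.83 and 14.04 at 3 W, and 13.92, 14.27 and 14.52 at 5 W. The AN values were 11.55, 11.70 and 11.80 at P0, 11.86, 11.71 and 11.52 at 1 W, 13.49, 13.41 and 13.05 at 3 W, and 13.67, 13.86 and 14.15 at 5 W. Every array at 3 W and 5 W was above every array at P0 and 1 W, in both roots. Aldh1l1 rose from P0 to 5 W by 2.47 ± 0.17 in EN (5.54-fold, adjusted p = 1.3e-09, limma) and by 2.21 ± 0.17 in AN (4.62-fold, adjusted p = 5.2e-09). Most of this lay between 1 W and 3 W, whose arrays shared no slide, with 1.71 ± 0.17 in EN and 1.62 ± 0.17 in AN (adjusted p = 1.4e-06 and 2.7e-06, limma). The difference between the roots was -0.51 ± 0.17 at 1 W and -0.59 ± 0.17 at 3 W, with no overlap, and -0.34 ± 0.17 at 5 W, with overlap. None was called (adjusted p = 0.13, 0.051 and 0.27, limma). A second probe, tied to an Ensembl transcript, was well above background on 0 of 3 EN arrays and 1 of 3 AN arrays at P0, and on all 3 of each at 5 W.

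S100b encodes a calcium-binding protein of astrocytes and of Schwann cells. Its log2 level in EN was 14.67, 14.45 and 14.78 at P0, 16.41, 16.52 and 16.29 at 1 W, 17.34, 17.14 and 17.31 at 3 W, and 17.52, 17.54 and 17.72 at 5 W. AN arrays stood at 13.55, 13.52 and 13.44 at P0, 15.47, 15.64 and 15.20 at 1 W, 16.72, 16.57 and 16.84 at 3 W, and 17.02, 17.10 and 17.09 at 5 W. EN was above AN without overlap at each stage, and the arrays of a group lay close together. When the 8 groups were put in order of their means, no neighbours overlapped for S100b, against 4 to 7 overlapping pairs of 7 for each of the other genes. At P0 the difference was -1.13 ± 0.12 (2.19-fold lower in AN, adjusted p = 0.00069, limma), the only call of S100b between the roots. At 1 W, 3 W and 5 W the difference was -0.97 ± 0.12, -0.55 ± 0.12 and -0.52 ± 0.12 (adjusted p = 0.00040, 0.012 and 0.014, limma), below 2-fold. Without AN replicate 2 or EN replicate 3 at 1 W, the difference there was above 2-fold (-1.07 and -1.03). From P0 to 5 W it rose by 2.96 ± 0.12 in EN (7.80-fold, adjusted p = 2.1e-12, limma) and by 3.57 ± 0.12 in AN (11.9-fold, adjusted p = 7.7e-13).

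**Figure D2:**
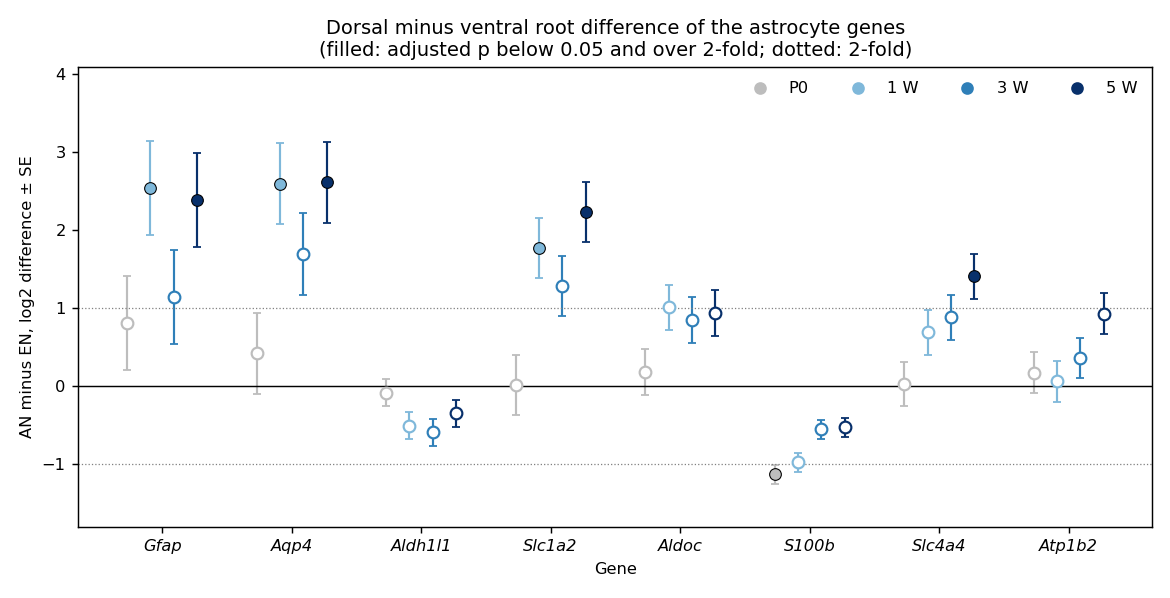
AN minus EN difference in log2 level for each of the 8 genes (horizontal axis), with its standard error, at the 4 stages (light to dark, P0 first). Filled points were called, open points were not, and dotted lines mark 2-fold; 6 genes lie above 0 and Aldh1l1 and S100b below 0 at all 4 stages, and the called points at 1 W and 5 W all lie above 0.

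Counted together, the genes called between the roots at P0 were 0 higher in AN, where 0.0714% of all tested probes were, and 1 lower (S100b), where 0.255% were. At 1 W, 3 of 8 were higher in AN (Gfap, Aqp4 and Slc1a2) against 2.41% of all probes, and 0 were lower against 0.371%. At 3 W, limma called 0 of 8, against 2.23% higher and 0.882% lower. By an unadjusted p below 0.05 there were 6, 2 of them with over 2-fold, and those shares do not apply to them. At 5 W, 4 of 8 were higher (Gfap, Aqp4, Slc1a2 and Slc4a4) against 2.49%, and 0 were lower against 0.821%. The median difference over the 8 genes was 0.10, 0.85, 0.87 and 1.18 at the 4 stages, while that over all tested probes stayed between -0.06 and 0.01. The count at 3 W was 2 (Aqp4 and Slc1a2) with the AN and EN arrays as pairs, with the slide as a term, with array quality weights or with scanner signals scaled to the 75th percentile. The count at 1 W was 1 (Aqp4) without AN replicate 1 or EN replicate 1.

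Whether the difference between the roots had changed since P0 was tested directly. Over the 8 genes limma called 0 at 1 W, 3 W and 5 W, against 0.0632%, 0.525% and 0.931% of all probes. By an unadjusted p below 0.05 with over 2-fold there were 2, 1 and 3 genes, to which those shares do not apply. Slc1a2 came nearest: its AN minus EN difference at 5 W exceeded that at P0 by 2.22 ± 0.54 (adjusted p = 0.053, limma), and with the arrays as pairs the adjusted p was 0.022. It was also called without EN replicate 2 (2.66, 0.019) or AN replicate 3 (2.53, 0.023) at 5 W, and the latter fit called Slc4a4 too (1.63, 0.048). For Aqp4 the change by 5 W was 2.19 ± 0.74 (adjusted p = 0.20, limma), for Slc4a4 1.38 ± 0.41 (0.13) and for Gfap 1.59 ± 0.85 (0.55). For S100b the change by 5 W was 0.61 ± 0.17 (adjusted p = 0.11, limma), and with the arrays as pairs its adjusted p was 0.021, below 2-fold.

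Against P0, the calls in EN were mixed in direction. At 1 W they were 1 higher (S100b) and 1 lower (Slc1a2), where 6.25% and 5.67% of all probes were called. Without EN replicate 1 at 1 W the total was 1 (S100b), and without EN replicate 2 it was 4, with Aqp4 and Slc4a4 added. At 3 W they were 2 higher (Aldh1l1 and S100b) and 1 lower (Slc4a4), where 16.1% and 14.4% were, and at 5 W 2 higher (the same pair) and 2 lower (Aqp4 and Slc4a4), where 15.4% and 14.5% were. In AN no gene was called lower at any stage, where 3.62%, 12.8% and 12.7% of all probes were at 1 W, 3 W and 5 W. Higher in AN were 1 gene at 1 W (S100b, against 4.96%), 4 at 3 W (Aldh1l1, Slc1a2, Aldoc and S100b, against 15%) and 6 at 5 W (those 4, Gfap and Atp1b2, against 15.2%). By neighbouring stages, 3 genes were called from 1 W to 3 W in EN (Aldh1l1, Slc1a2 and Aldoc) and 2 in AN (Aldh1l1 and S100b), where 11.7% and 12.6% of all probes were called. From 3 W to 5 W limma called 0 in each root, where 1.12% and 1.68% were. At an unadjusted p below 0.05 there were 1 gene in EN and 3 in AN, with no share of all probes given. The 3 W arrays were all on 1 slide that held no P0 or 1 W array. Changes from either stage to 3 W are thus also changes between slides. With the slide as a term, Atp1b2 changed from 1 W to 3 W by 1.19 in EN and 1.49 in AN, and Aldoc by 1.33 in AN. These were called, where the fit without the term gave 0.51, 0.81 and 0.86. Besides the 3 W arrays, their slide held only replicate 3 of each root at 5 W, so these shifts rest on those arrays. On the slide that held both 5 W and P0 arrays, 1 array at 5 W (replicate 2) stood against 2 at P0 in each root. There the 5 W minus P0 difference was 2.55 in EN and 2.11 in AN for Aldh1l1, and 2.92 and 3.62 for S100b. It was -1.25 in EN for both Aqp4 and Slc4a4, and 2.64 in AN for Gfap. AN replicate 2 at 5 W was the highest array for Gfap (13.18). Without that array the Gfap rise in AN from P0 to 5 W was 1.32 and missed the threshold (adjusted p = 0.090, limma).

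The arrays of a group also showed which genes varied together. After each group's mean was taken away, Gfap and Aqp4 deviated together over the 24 arrays with r = 0.83, Aldoc and Slc4a4 with r = 0.82, Slc1a2 and Slc4a4 with r = 0.74, and Gfap and Slc1a2 with r = 0.70. The r of Gfap and Aqp4 leans on EN replicates 1 and 2 at 1 W, where both genes deviated most. Gfap deviated there by -1.57 and 1.54, and Aqp4 by -1.60 and 1.46. Aldh1l1 and S100b had r between -0.26 and 0.23 with each of the other 6, and 0.14 with each other. Without removing group means, Aldh1l1 and S100b had r = 0.87 with each other, and Slc4a4 had r = -0.62 with S100b. These are descriptions over 24 arrays in which the genes share each array and its normalization.

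**Figure D3:**
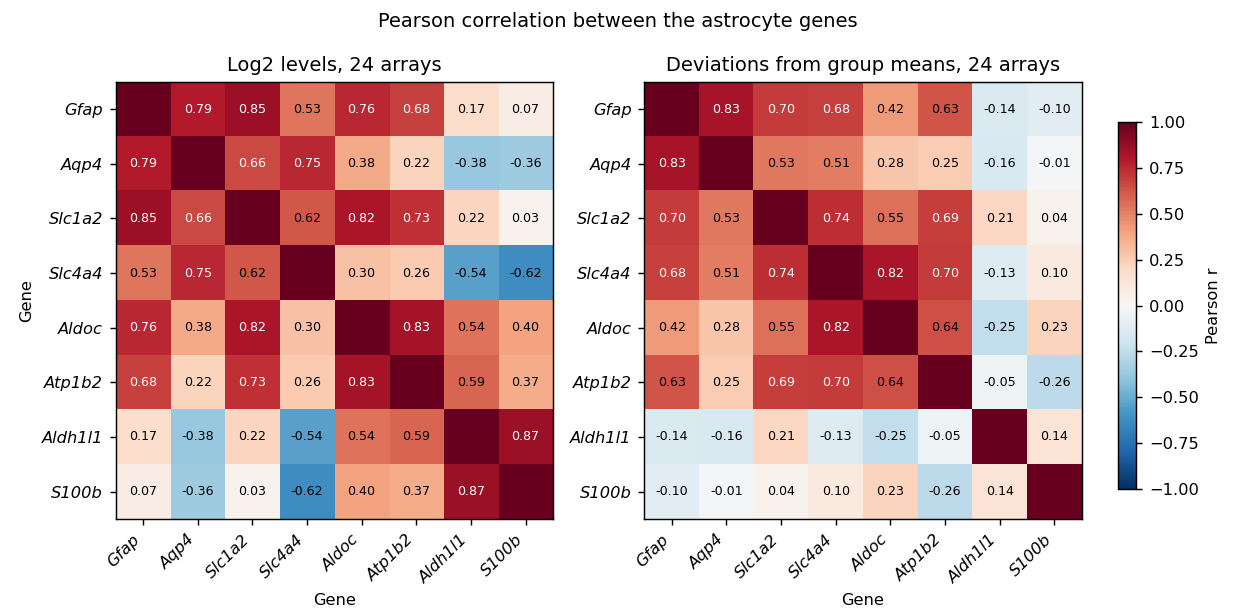
Pearson correlation between each pair of the 8 genes over the 24 arrays, for log2 levels (left) and for deviations from the group means (right), on a colour scale from -1 to 1. On the right, Gfap, Aqp4, Slc1a2, Slc4a4, Aldoc and Atp1b2 form a block between 0.25 and 0.83, outside which Aldh1l1 and S100b lie between -0.26 and 0.23.

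Some lists of marker genes of other cells also differed between the roots, and their part in the differences of the 8 genes was not tested. Of all tested probes, 0.0714%, 2.41%, 2.23% and 2.49% were called higher in AN at the 4 stages in turn, and 0.255%, 0.371%, 0.882% and 0.821% lower. The 10 oligodendrocyte genes, which mark the myelinating glia of the central tissue, had 0, 4, 2 and 5 called higher in AN at the 4 stages in turn, with Gpr17 at each of the last 3 and Olig1 at 1 W and 5 W, and 0 lower. At 1 W their summed log2 level was 14.35 to 15.49 in EN and 14.68 to 15.78 in AN. The sum leans on Ermn, the brightest of the list (mean log2 level 14.92, with Mobp next at 9.52). By the mean of the log2 levels, the 1 W arrays gave 6.27, 7.47 and 6.81 in EN and 8.57, 8.13 and 8.16 in AN, without overlap. At 5 W the sum was 11.43 to 15.23 in EN and 15.09 to 16.10 in AN, and Opalin and Nkx2-2 were not well above background on any EN array of that stage. The 7 spinal cord neuron genes had 0, 1, 1 and 4 called higher in AN, with Slc17a6 the only call at 1 W and at 3 W and among those at 5 W. Their sums at 5 W were 9.32 to 10.00 in EN and 10.59 to 12.83 in AN. Of the 7, Gad2 and Slc6a5, which mark inhibitory neurons, were not well above background on any EN array at 5 W. The 8 sensory neuron genes had 0, 8, 2 and 1 called higher, with sums of 10.46 to 12.06 in EN and 16.16 to 16.50 in AN at 1 W, and of 10.98 to 11.61 in EN and 10.77 to 14.65 in AN at 5 W. At P0 the sums were 14.89 to 15.65 in EN and 15.01 to 16.69 in AN. From P0 to 1 W in EN, 8 of these genes and 5 of the spinal cord neuron genes were called lower, where 5.67% of all probes were. Within AN the counts were 0 and 3, where 3.62% of all probes were. Without EN replicate 1 the sensory neuron count higher in AN at 1 W was 2, without AN replicate 3 that at 3 W was 0, and without AN replicate 2 that at 5 W was 0. The last of these also left 3 oligodendrocyte genes and 2 spinal cord neuron genes called at 5 W, and at 3 W 1 oligodendrocyte gene was left without AN replicate 3. With those arrays left out in turn, 0.736%, 1.31% and 1.55% of all tested probes were called higher at 1 W, 3 W and 5 W. The 8 genes of non-myelinating and immature Schwann cells, such as Ncam1 and Scn7a, had 0, 2, 5 and 5 called higher in AN, with sums at 5 W of 15.38 to 15.50 in EN and 16.14 to 16.23 in AN. The 8 genes of myelinating Schwann cells had 4, 1, 1 and 1 called lower in AN, with Pmp2 at each stage, with 0 at 1 W without EN replicate 1, and sums at P0 of 19.38 to 19.52 in EN and 18.79 to 19.13 in AN. Of the 3 motor neuron genes tested, the 8 genes of fibroblasts and meninges and the 8 of macrophages and microglia, limma called 0 between the roots at any stage. At 5 W, 0, 6 and 5 of them in turn had an unadjusted p below 0.05, with no share of all probes given. Their medians were 0.41, -0.54 and -0.45.

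The same lists were set beside single genes from array to array, as a description over 24 arrays. Slc4a4 had r = 0.92 with the summed spinal cord neuron genes over the 24 arrays and r = 0.74 after group means were taken away. Atp1b2 had r = 0.85 and 0.81 with the summed other astrocyte genes, a sum that leans on Plcd4 (mean log2 level 15.80, with Glul next at 13.37). Aldoc had r = 0.81 with the spinal cord neuron genes and 0.73 with the sensory neuron genes after group means were taken away. Within EN at P0 and AN at 1 W, the order of the arrays for Aldoc was the opposite of that for the sensory neuron sum. S100b had r = 0.93 with the genes of myelinating Schwann cells over all arrays and 0.17 after group means were taken away. AN replicate 2 at 5 W, on which Gfap, Slc1a2, Aldoc, Slc4a4 and Atp1b2 were each at their highest of the 24 arrays, also held the highest sums of other astrocyte genes (17.85), oligodendrocyte genes (16.10) and spinal cord neuron genes (12.83) of all arrays. EN replicate 1 at 1 W, the lowest array for Gfap, Aqp4, Slc1a2 and Aldoc, had an oligodendrocyte sum of 14.87, between those of the other arrays of its group, 14.35 and 15.49. Its sum was the lowest of its group for spinal cord neuron genes (9.36, against 9.56 and 10.72) and for sensory neuron genes (10.46, against 11.04 and 12.06), and the highest for other astrocyte genes (16.94, against 16.70 and 16.90). By the mean of the log2 levels in place of the sum, it was the lowest for other astrocyte genes (8.29, against 8.95 and 8.76) and oligodendrocyte genes (6.27, against 7.47 and 6.81).

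**Figure D4:**
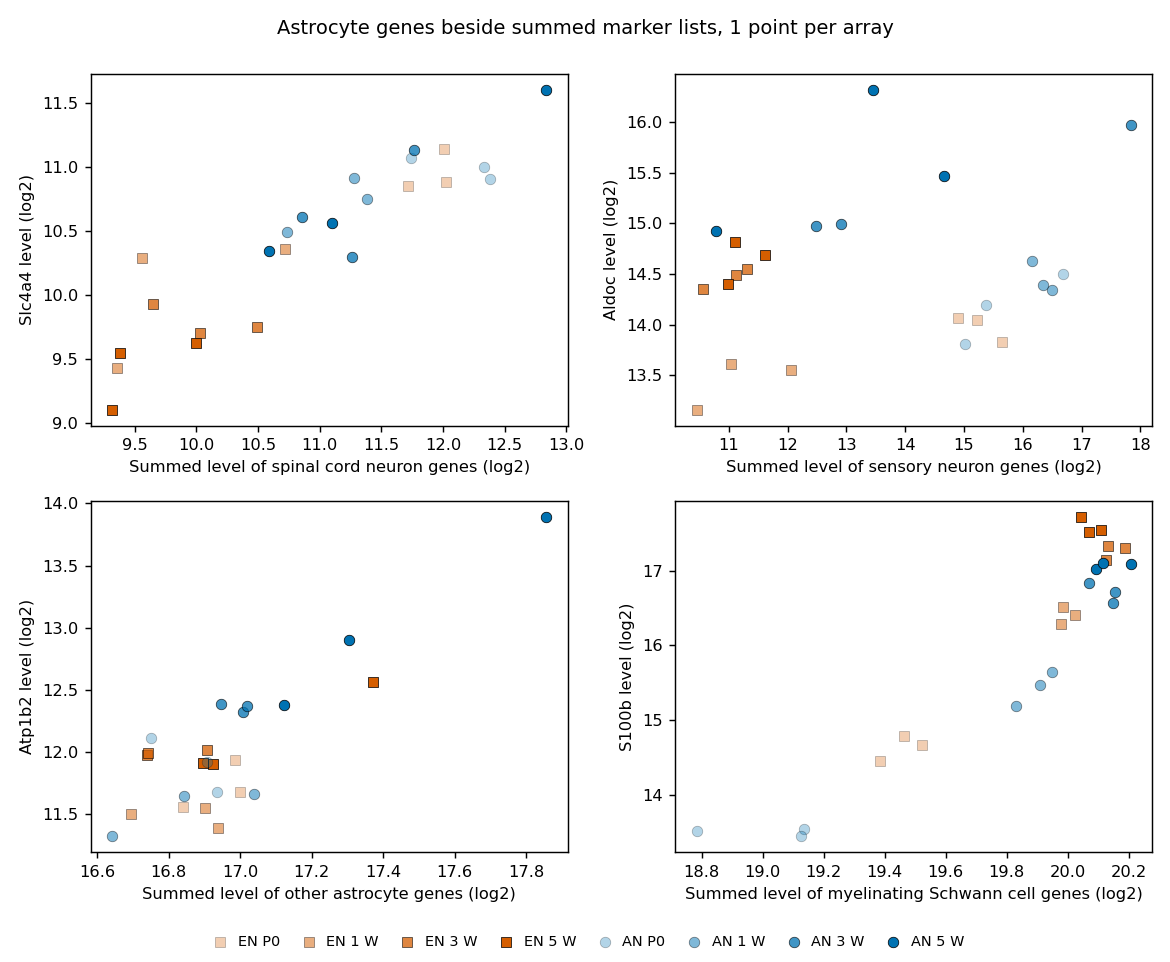
Log2 level of Slc4a4, Aldoc, Atp1b2 and S100b (vertical axes) against the summed log2 level of a marker list (horizontal axes), 1 point per array, with squares for EN, circles for AN and darker points for later stages. Slc4a4 follows the spinal cord neuron genes across all groups. Aldoc follows the order of the sensory neuron genes within some groups, runs in the opposite order within others, and does not follow them across stages. Atp1b2 is led by 1 AN array at 5 W (13.89). S100b rises with the myelinating Schwann cell genes up to 1 W and goes on rising after they level off.

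Of 30 other astrocyte genes, limma called 0 between the roots at P0, where 5 had an unadjusted p below 0.05, with no share of all probes given. In AN, 6 were higher and 2 lower at 1 W, 8 were higher and 0 lower at 3 W, and 12 were higher and 0 lower at 5 W, with median differences of 0.12, 0.41, 0.29 and 0.54. Of all tested probes, 2.41%, 2.23% and 2.49% were called higher at 1 W, 3 W and 5 W, and 0.371%, 0.882% and 0.821% lower. Without AN replicate 3 the count at 3 W was 3 higher (Agt, Acsbg1 and Kcnj10), without EN replicate 1 that at 1 W was 4 higher and 2 lower, and without AN replicate 2 that at 5 W was 9 higher. Mlc1, whose product sits in astrocyte end feet, was 2.79 ± 0.52 higher in AN at 5 W (adjusted p = 0.0026, limma). Kcnj10, the potassium channel of astrocytes, was 2.54 ± 0.17 higher (adjusted p = 4.7e-08), and fell from P0 to 5 W by 4.24 (SE 0.17) in EN and by 1.02 (SE 0.17) in AN. Glul, the glutamine synthetase, rose from P0 to 5 W by 2.31 ± 0.26 in EN and by 2.93 ± 0.26 in AN, with 0.53 ± 0.26 between the roots (adjusted p = 0.26, limma). Plcd4 differed by 0.19 at 5 W and was not called. Gjb6 and Fam107a were the genes called lower in AN at 1 W, with differences of -1.17 ± 0.23 and -1.61 ± 0.31 (adjusted p = 0.0073 and 0.0058, limma). From P0 to 5 W the list had 8 called higher and 11 lower in EN, and 14 higher and 3 lower in AN. Of all probes, 15.4% were called higher and 14.5% lower in EN, and 15.2% and 12.7% in AN.

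The 12 genes of reactive astrocytes, which are known to rise after injury, had calls in both directions. In AN against EN, 0, 1, 2 and 1 were called higher and 0, 0, 1 and 1 lower at the 4 stages in turn, with medians between -0.11 and 0.14. Without AN replicate 3 the calls at 3 W were 1 higher and 0 lower. From P0 to 5 W, 5 were called higher and 4 lower in each root, where 15.4% and 14.5% of all probes were in EN and 15.2% and 12.7% in AN. Vim, an intermediate filament that astrocytes and Schwann cells share, differed by -0.26 ± 0.11 at 5 W (adjusted p = 0.19, limma), and Nes by -0.75 ± 0.22 (adjusted p = 0.046), below 2-fold.

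**Figure D5:**
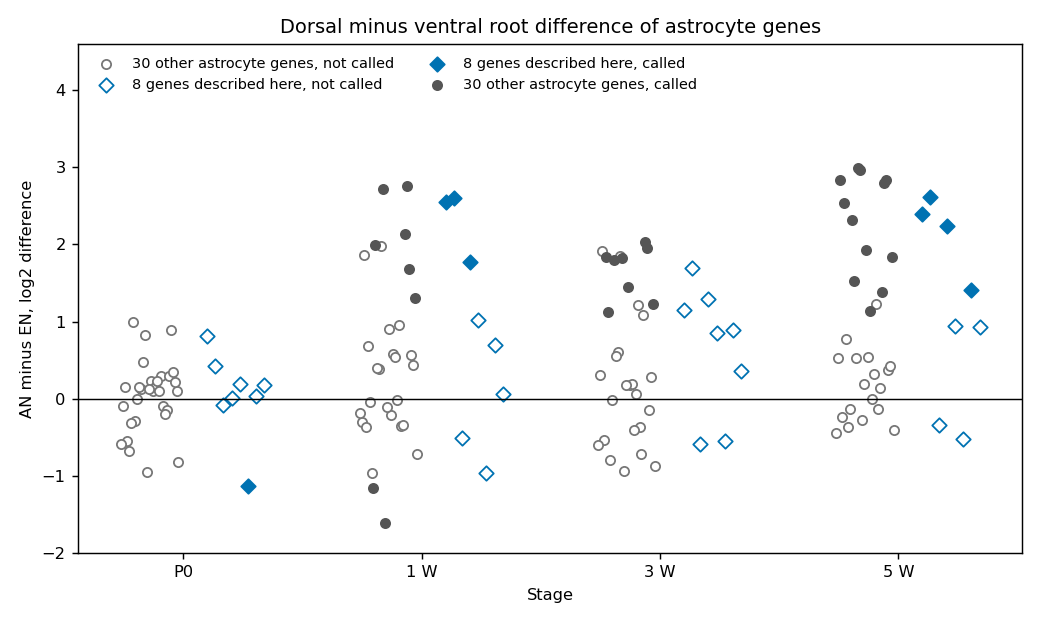
AN minus EN difference in log2 level at each stage for the 30 other astrocyte genes (circles, left of each stage) and the 8 genes described here (diamonds, right), with called genes filled. The filled circles number 0, 8, 8 and 12 at the stages in turn, and all of them lie above 0 except 2 at 1 W.

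Searched over 18140 other named genes, each gene had other genes with a like pattern across the 24 arrays. For Gfap the nearest were Slc39a12 (r = 0.94), Cdk18 (0.91) and Gm31740 (0.89), and for Aqp4 Mlc1 (0.94), Gabrb1 (0.91) and Dbx2 (0.88). Slc1a2 was nearest to Kndc1 (0.90), Slc39a12 (0.90) and Hrh3 (0.89). For Slc4a4 the nearest were Ngef (0.97), Grin3a (0.96) and Adgrb1 (0.96), for Aldoc Gls2 (0.93), Zbtb11 (0.93) and Clu (0.92), and for Atp1b2 Gm6756 (0.90), Daam2 (0.88) and Bbox1 (0.88). Aldh1l1 was nearest to Slc25a29 (0.99), Pip5k1a (0.98) and Mertk (0.98), and S100b to Ogn (0.99), Fam107a (0.99) and Cyb5d2 (0.99). Slc39a12 and Mlc1 are among the 30 other astrocyte genes, and Fam107a too. Each r is over the same 24 arrays in 8 groups, so a shared change with stage is enough to make it high.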

How the data were processed

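RNA of root fibres was labelled with 1 dye and hybridised to 24 Agilent mouse arrays with 60-base probes, and each array's group was taken from its label. The authors deposited scanner files written by Feature Extraction (version 10.7.1.1 in the submitters' processing notes), whose signal columns hold fluorescence intensity after background subtraction. They also deposited the log2 table used here, quantile normalized in GeneSpring. Its columns share 1 median (6.31), and each matched its own array's log2 signal with r of 0.9955 to 0.9999 over probes, against at most 0.9904 for another array.

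The test covered 36409 of 56605 gene probes, those with all 3 arrays of some group well above background. All 8 group means were fitted in limma 3.58.1 (R 4.3.3) with eBayes and Benjamini-Hochberg adjustment over these probes, after a check on simulated data. Genes named were the 8 members, the 3 genes of highest Pearson r to each, and from 10 marker lists (103 genes) the brightest and those in counts of 5 or fewer. The members and lists were chosen with earlier results of these data known, so list counts carry no test. Some genes of the lists are not reported by name here.

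Same-numbered AN and EN arrays of a stage shared a slide and deviated from their group means together (r of 0.11 to 0.65 over probes, each above that with other numbers), so the numbers were taken to pair them, and the paired value is given where it changes a call. Numbers were not taken to pair stages: same-numbered arrays of a root had r of -0.25 to 0.38 with P0, and r with other numbers is not given. Alternatives were 3 other normalizations from the scanner signals, other filters and thresholds, replicate, slide and weight terms, the next brightest probe, and leaving out each array; marker list counts without single arrays were added after seeing the data. Probe positions are mm9 per the file headers; exon and UTR positions are not given. The number of arrays limits the precision.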

Additional observations from a re-analysis of the deposited data

How the results depend on the processing

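Of 136 results on the 8 genes, recomputed 2495 times under the alternatives, 2389 kept their side of the threshold, 31 no longer passed, 75 newly passed and 0 called ones reversed, while 42 that were not called changed sign. At 3 W the count of genes called between the roots was 0 in the text. It was 2 (Aqp4 and Slc1a2) with the replicate block (AN and EN pairs), the slide as a block or array quality weights. The same 2 were called with unadjusted p or scaling to the 75th percentile, and Aqp4 and Slc4a4 with the next brightest probe. The count was 1 with normexp (Aqp4), with the replicate number as a term (Slc1a2) and with no fold threshold (S100b, lower in AN). Shares of all probes under these alternatives are not given. The change of the root difference since P0, called in 0 genes in the text, was called with unadjusted p in 2 at 1 W, 1 at 3 W and 3 at 5 W. At 5 W it was called in 1, Slc1a2, with both forms of the replicate block, the slide, weights or normexp. With the next brightest probe the 1 gene was Slc4a4. From P0 to 1 W, the count in EN went from 2 to 1 with normexp or with probes above background on all 24 arrays, and that in AN from 1 to 2 with normexp, unadjusted p or the next brightest probe. Leaving out 1 array at a time gave 1 to 4 genes for AN against EN at 1 W, 1 to 4 for 1 W against P0 in EN, and 0 to 2 for the change of the root difference by 5 W. The paired replicate block changed 1 other call, that of Aldoc between the roots at 1 W (adjusted p = 0.031). Gfap between the roots at 5 W missed the threshold with array quality weights (2.38, adjusted p = 0.10), as did Slc1a2 from P0 to 3 W in AN with normexp (0.87, below 2-fold). The cause of these changes was not tested. With 3 arrays a group, differences near 2-fold in genes that vary as Gfap does (SE 0.60) could not be called.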
